A study of Mus musculus with 2 samples.

Results

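The genes described here encode proteins that bind pre-mRNA and carry out or steer splicing: heterogeneous nuclear ribonucleoproteins (hnRNPs), serine/arginine-rich splicing factors (SRSF), poly(C)-binding proteins (PCBP), subunits of splicing factor 3 (SF3A and SF3B), and core proteins of the small nuclear ribonucleoproteins (snRNPs). The rule for membership uses the gene name and no measured value, although it was set with earlier results of these data known, and 50 of the 38817 genes in the table carried such a name: 19 hnRNP, 11 SRSF, 4 PCBP, 7 SF3 and 9 snRNP genes. For orientation, 55 protein-coding mouse genes have names of this form, and HNRNPR, SF3A2, SF3B3, SNRPB and SNRPB2 were not analysed here.

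The series concerns spermidine, a natural polyamine, and the meiotic maturation of pig oocytes, the female germ cells. A library labelled SPE, read here as spermidine-treated, was set against a control library, each made from a pool of 100 oocytes. The labels give both groups as wild-type ICR mouse oocytes, whereas the table places its genes on pig chromosomes, so only the names and numbers of the columns tie the values to the labelled samples. No source used here gives the dose, the time of treatment or the age of the animals. With 1 matched library in each group there was no replicate error and no test, and every difference below is a difference between these 2 libraries. Values are FPKM, fragments scaled to transcript length and to the mapped fragments of the library. They are relative to the rest of the library and per length. Comparing levels between genes assumes that lengths and reads were assigned correctly, which could not be checked here.

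Pre-mRNA splicing begins when the U1 snRNP and the SF3-containing U2 snRNP recognise the ends of an intron, with a ring of Sm proteins forming the core of each of these particles. SR proteins bind exons and mostly favour the use of nearby splice sites, while many hnRNPs bind exons or introns and often oppose it. PCBPs bind C-rich RNA and also act in mRNA stability and translation. Fully grown oocytes become transcriptionally silent before they mature, so their later RNA is for the most part a stored maternal pool.

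Transcripts of 1 gene dominated the group. PCBP1, which encodes a poly(C)-binding protein with KH domains and is known as an intronless gene, was at 1436 FPKM in the SPE library and 1557 FPKM in the control library (chromosome 3, 75813906 to 75815624; no source used here names the build). It ranked 4 in both libraries among 38802 genes outside the mitochondrial genome and the ribosomal RNA, behind UBB, HILPDA and ACCSL. It alone made up 82.6% of the summed FPKM of the 50 genes in the SPE library and 84.7% in the control library. No other gene of the table overlapped its locus.

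The other PCBP genes were near or at 0. PCBP2, the closest relative of PCBP1 and itself a splicing and translation regulator, was at 0.963 FPKM in the SPE library and 1.11 FPKM in the control library. The level of PCBP1 was thus 1492 times that of PCBP2 in the SPE library and 1408 times in the control library. PCBP3 and PCBP4 were listed at 0 in both libraries. How reads were divided between close relatives is not given, and the loci of PCBP2, PCBP3 and PCBP4 are shared with other gene models.

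**Figure D1:**
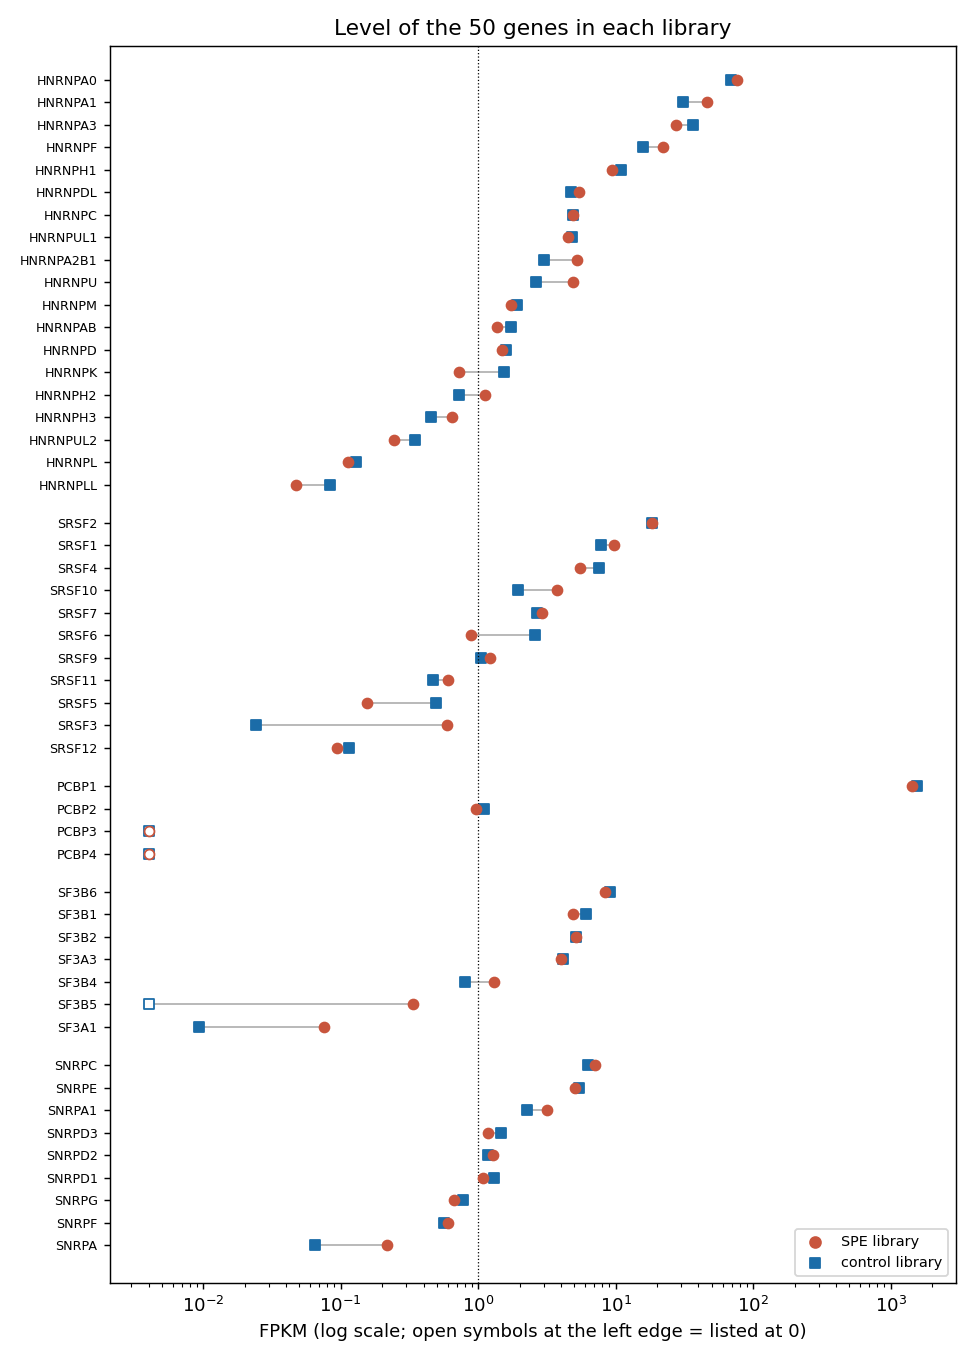
FPKM of each of the 50 genes in the SPE library (circles) and the control library (squares) on a log scale, grouped by family and ordered by mean; open symbols mark genes listed at 0 and the dotted line marks 1 FPKM. PCBP1 lies at 1436 and 1557 FPKM, far to the right of all other genes shown, and most pairs of symbols lie close together.

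Of the 50 genes 34 had a mean level of 1 FPKM or more over both libraries, the level set for comparing ratios, and 16 lay below it. Such a mean was reached by 68.0% of these genes, against 20.3% of all genes with an established symbol. HNRNPH2 lay just below this level, with 1.12 FPKM in the SPE library and 0.726 FPKM in the control library, and PCBP2 just above it. Only 7 genes had a mean level of 10 FPKM or more. They were PCBP1, HNRNPA0, HNRNPA1, HNRNPA3, HNRNPF, HNRNPH1 and SRSF2, so that no SF3 or snRNP gene reached a mean of 10 FPKM. Mitochondrially encoded genes held 65.7% of the summed FPKM in the SPE library and 62.7% in the control library. Such a share lowers the FPKM of every other gene. Ratios were widest at low levels: the robust SD of the log2 ratio, from the median absolute deviation, was 0.32 over all genes from 1 to 2 FPKM and 0.20 over those from 30 to 100 FPKM.

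Differences between the libraries are given as log2((SPE + 1) / (control + 1)), which understates them for low genes. None of the 34 genes differed by 2-fold on this scale. Of all 4391 genes with a mean level of 1 FPKM or more 2.85% were at least 2-fold higher and 2.14% at least 2-fold lower in the SPE library, and of the 3030 among them with an established symbol, as all 34 have, 1.42% and 0.495%. At a 1.5-fold limit 3 genes were higher, HNRNPU, SRSF10 and HNRNPA2B1, and SRSF6 was lower. By this limit 7.54% of all genes were higher and 5.67% lower, or 5.18% and 2.97% of those with an established symbol, so that the counts of 3 and 1 in 34 were near what the table held. The median log2 ratio was -0.03 over the 34 genes and -0.04 over all 4391, or 0.02 and 0.01 when both libraries were scaled without mitochondrial and ribosomal RNA genes. As deposited, 14 of the 34 (41.2%) had a positive and 20 a negative ratio, against 44.6% positive among all 4391.

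**Figure D2:**
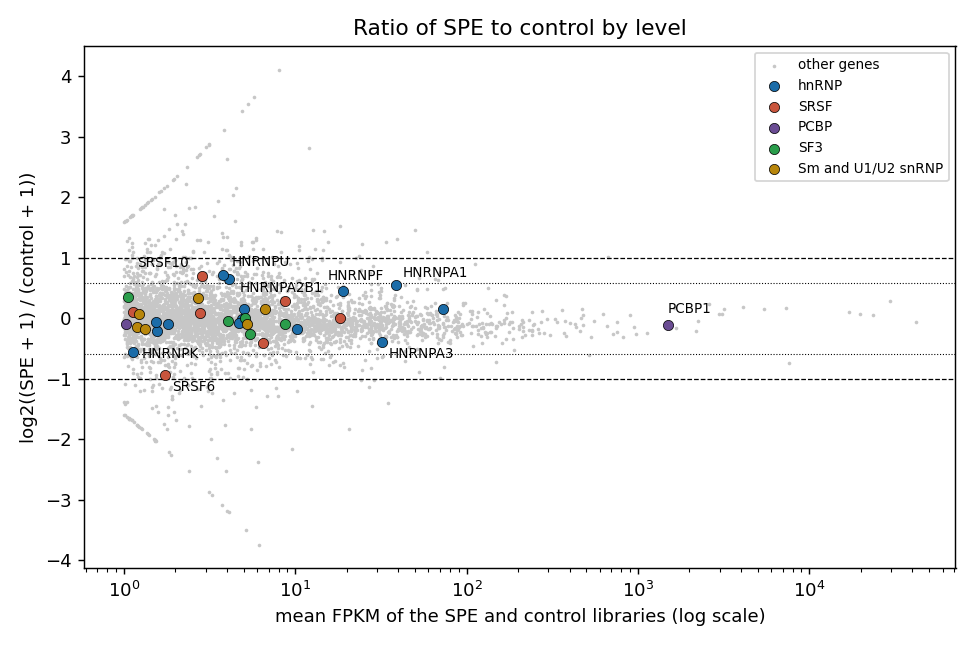
Log2 ratio of SPE to control (pseudocount of 1 FPKM) against the mean FPKM of both libraries on a log scale, for all 4391 genes at or above 1 FPKM (grey) and the 34 splicing factor, hnRNP and PCBP genes among them (coloured by family). Dashed lines mark 2-fold and dotted lines 1.5-fold; all coloured points lie within the dashed lines, with SRSF6 nearest to the lower line at -0.93.

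The hnRNP family held 5 of the 7 genes with a mean level of 10 FPKM or more. HNRNPA0, an A/B-type hnRNP known for binding AU-rich mRNA, was the second most abundant of the 50 genes, at 76.3 FPKM in the SPE library and 68.5 FPKM in the control library (log2 ratio 0.15). Its listed locus on chromosome 2 spans 288305 bases and is shared with 6 other gene models, of which KLHL3 was the highest at 0.185 FPKM in the SPE library and 0.296 FPKM in the control library, and the other 5 were listed at 0 in both.

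HNRNPA1 and HNRNPA3, close relatives of the A/B type, lay on opposite sides. HNRNPA1, a repressor of splice site use, was at 46.1 FPKM in the SPE library and 31.0 FPKM in the control library, a log2 ratio of 0.56 and just under 1.5-fold (chromosome 5, 20329539 to 20334145). HNRNPA3 was at 27.5 FPKM in the SPE library and 36.5 FPKM in the control library, a log2 ratio of -0.39 (chromosome 15, 92417689 to 92428369). HNRNPA1 was therefore the higher of the pair in the SPE library and the lower in the control library. Among the 322 genes with means from 30 to 100 FPKM, 10 (3.11%) had a ratio at least as high as that of HNRNPA1 and 19 (5.90%) one at least as low as that of HNRNPA3. Shares by level, here and below, are over all genes, also those without an established symbol. Genes with an established symbol passed 1.5-fold less often over all levels, and their shares by level were not computed. Both genes are known to have many processed copies in mammalian genomes, so a share of their reads may be assigned to other models.

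Signs also differed within the F/H group, whose proteins bind G-rich sequences. HNRNPF was at 22.0 FPKM in the SPE library and 15.8 FPKM in the control library (log2 ratio 0.45), while HNRNPH1 was at 9.47 FPKM in the SPE library and 10.9 FPKM in the control library (-0.19). HNRNPH3, at 0.646 FPKM in the SPE library and 0.451 FPKM in the control library, stayed below 1 FPKM.

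HNRNPU, a scaffold attachment factor that binds chromatin and RNA, had the largest positive ratio of the 34 genes, with 4.92 FPKM in the SPE library and 2.62 FPKM in the control library (0.71). HNRNPA2B1, whose protein takes part in splicing, RNA transport and the reading of m6A marks, was at 5.25 FPKM in the SPE library and 2.99 FPKM in the control library (0.65). Without the pseudocount these were ratios of 1.88 and 1.75. They lie in the range of 2 to 5 FPKM, where 6.86% of 1297 genes had a ratio at least as high as that of HNRNPU and 8.17% one at least as high as that of HNRNPA2B1.

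On the lower side of the family stood HNRNPK, which like the PCBPs binds C-rich RNA through KH domains. It was at 0.720 FPKM in the SPE library and 1.54 FPKM in the control library (log2 ratio -0.56, or a ratio of 0.468 without the pseudocount), and 8.59% of the 1316 genes from 1 to 2 FPKM had a ratio at least as low. HNRNPC, whose protein packages nascent RNA, was at 4.85 FPKM in the SPE library and 4.91 FPKM in the control library. HNRNPM was at 1.72 FPKM in the SPE library and 1.91 FPKM in the control library. HNRNPL and its relative HNRNPLL, which bind CA repeats, were at 0.114 and 0.0475 FPKM in the SPE library and at 0.129 and 0.0833 FPKM in the control library. Of the remaining hnRNP genes, HNRNPDL, at 5.37 FPKM in the SPE library and 4.72 FPKM in the control library, and HNRNPUL1, at 4.51 FPKM in the SPE library and 4.85 FPKM in the control library, were the highest. HNRNPD was at 1.49 FPKM in the SPE library and 1.60 FPKM in the control library, HNRNPAB at 1.38 FPKM in the SPE library and 1.74 FPKM in the control library, and HNRNPUL2 at 0.244 FPKM in the SPE library and 0.349 FPKM in the control library. Of the 14 hnRNP genes with a mean level of 1 FPKM or more, 6 had a positive and 8 a negative ratio, with a median of -0.04, which became 0.0016 when scaled without mitochondrial and ribosomal RNA genes. The summed FPKM of all 19 was 213.7 in the SPE library and 191.4 in the control library.

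SRSF2, a prototype SR protein that activates exons, was the most abundant SRSF gene and the most even, with 18.2 FPKM in the SPE library and 18.3 FPKM in the control library over a gene model of 726 bases. SRSF1, the SR protein first known as an alternative splicing factor, was at 9.67 FPKM in the SPE library and 7.77 FPKM in the control library (log2 ratio 0.28). SRSF4 was at 5.46 FPKM in the SPE library and 7.58 FPKM in the control library (-0.41), and SRSF7, which also links splicing to mRNA export, at 2.91 FPKM in the SPE library and 2.69 FPKM in the control library (0.08). SRSF9 was at 1.21 FPKM in the SPE library and 1.05 FPKM in the control library.

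Among the 7 SRSF genes past the 1 FPKM level, SRSF6 and SRSF10 had the most extreme ratios. SRSF6, an SR protein of exon recognition, was at 0.887 FPKM in the SPE library and 2.60 FPKM in the control library, the lowest log2 ratio of the 34 genes at -0.93 and a ratio of 0.341 without the pseudocount (chromosome 17, 51513133 to 51516063). In the range from 1 to 2 FPKM 59 of 1316 genes (4.48%) had a ratio at least as low. SRSF10, known as a splicing repressor when dephosphorylated in mitosis, was at 3.76 FPKM in the SPE library and 1.94 FPKM in the control library (0.69, or a ratio of 1.93 without the pseudocount), on an unplaced scaffold. From 2 to 5 FPKM 94 of 1297 genes (7.25%) had a ratio at least as high. The 7 SRSF genes of at least 1 FPKM had a median ratio of 0.08, and the summed FPKM of all 11 was 43.6 in the SPE library and 43.0 in the control library.

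The lowest SRSF genes illustrate how little stands behind small values. SRSF3, the smallest SR protein and an essential regulator in mouse oocytes and embryos, was at 0.590 FPKM in the SPE library and 0.0240 FPKM in the control library. The table gives no read counts, but low genes hold the relative depth: among 5128 genes between 0.005 and 0.3 FPKM the SPE value was most often 1.026 times the control value, as equal numbers of fragments would give. Against this step, SRSF3 matched 24 fragments in the SPE library for each 1 in the control library, within a tolerance of 0.001. Matches to such small whole numbers were found for 6 of 12 genes of the 50 that lay above 0 and under 1 FPKM in both libraries. The share was 34.4% of 8301 such genes of the table. How many matches arise by coincidence was not tested, and a single match may be one. If 24 and 1 were the fragments counted, the exact 95% binomial interval of the FPKM ratio of 24.6 of SRSF3 would run from 4.01 to 1012. Like the intervals below, it covers counting error only and not the spread between pools. An interval that leaves out 1 is therefore no test of a difference between the groups. Multiples of the matched terms would match as well and give other intervals. With their matched terms taken as counts, the intervals of the FPKM ratios of HNRNPL (0.244 to 3.06), HNRNPLL (0.150 to 1.89) and SRSF12 (0.163 to 3.81), all with ratios below 1, span a ratio of 1. SRSF5, with 0.155 FPKM in the SPE library and 0.495 FPKM in the control library, SRSF11, with 0.606 FPKM in the SPE library and 0.465 FPKM in the control library, and SRSF12, with 0.0936 FPKM in the SPE library and 0.114 FPKM in the control library, were also below 1 FPKM.

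SF3 subunits, which hold the U2 snRNP at the branch point, had 5 of 7 members past the 1 FPKM level, with log2 ratios from -0.27 to 0.35. SF3B6, the branch point contact protein also called p14, was the highest at 8.36 FPKM in the SPE library and 9.04 FPKM in the control library (log2 ratio -0.10). SF3B1, the large scaffold around the branch point adenosine, was at 4.86 FPKM in the SPE library and 6.06 FPKM in the control library (-0.27), the lowest ratio of these 5. SF3B2 was at 5.12 FPKM in the SPE library and 5.13 FPKM in the control library, and SF3A3 at 4.01 FPKM in the SPE library and 4.16 FPKM in the control library. SF3B4 had the largest ratio of these 5, with 1.30 FPKM in the SPE library and 0.802 FPKM in the control library (0.35).

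The 2 members below the 1 FPKM level were SF3A1 and SF3B5. SF3A1, which joins SF3A3 in the SF3A trimer, was at 0.0760 FPKM in the SPE library and 0.00926 FPKM in the control library, matching 8 fragments in the SPE library for each 1 in the control library. If these were the fragments counted, the exact 95% interval of its FPKM ratio of 8.21 would run from 1.10 to 364.2. SF3B5, over a model of 750 bases, was at 0.336 FPKM in the SPE library and listed at 0 in the control library. SF3A1 was thus listed far below SF3A3 in both libraries, although their proteins form 1 complex.

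The snRNP genes were low as a group. SNRPC, which stabilises the pairing of U1 with the 5′ splice site, was the highest at 7.10 FPKM in the SPE library and 6.30 FPKM in the control library (log2 ratio 0.15). SNRPA, which encodes another U1-specific protein, was at 0.218 FPKM in the SPE library and 0.0654 FPKM in the control library, matching a ratio of 13 to 4 fragments. If these were the fragments counted, the exact 95% interval of the FPKM ratio of 3.33 would run from 1.03 to 14.0. How many of all low genes have such an interval that leaves out 1 was not counted. SNRPA1, of the U2 snRNP, had the largest log2 ratio of the 6 snRNP genes past the 1 FPKM level, with 3.15 FPKM in the SPE library and 2.28 FPKM in the control library (0.34).

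Among the Sm ring genes SNRPE was the highest, at 5.03 FPKM in the SPE library and 5.43 FPKM in the control library over a model of 466 bases, the shortest of the 50. SNRPD3 had the lowest ratio of the same 6, with 1.18 FPKM in the SPE library and 1.46 FPKM in the control library (-0.18), over a locus shared with GUCD1. SNRPD1 was at 1.08 FPKM in the SPE library and 1.31 FPKM in the control library, and SNRPD2 at 1.29 FPKM in the SPE library and 1.18 FPKM in the control library. SNRPF and SNRPG lay below 1 FPKM, at 0.603 and 0.669 FPKM in the SPE library and at 0.565 and 0.769 FPKM in the control library. The products of these Sm genes enter the ring in equal numbers, while their listed levels spanned from SNRPF to SNRPE in each library.

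In sum over all 50 genes the FPKM came to 1739 in the SPE library and 1837 in the control library, and to 302.7 and 280.1 without PCBP1, so the direction of the sum rested on PCBP1. As a share of the FPKM outside mitochondrial and ribosomal RNA genes, the 50 genes held 2.23% in the SPE library and 2.27% in the control library. The SF3 genes summed to 24.1 FPKM in the SPE library and 25.2 FPKM in the control library, and the snRNP genes to 20.3 FPKM in the SPE library and 19.4 FPKM in the control library.

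**Figure D3:**
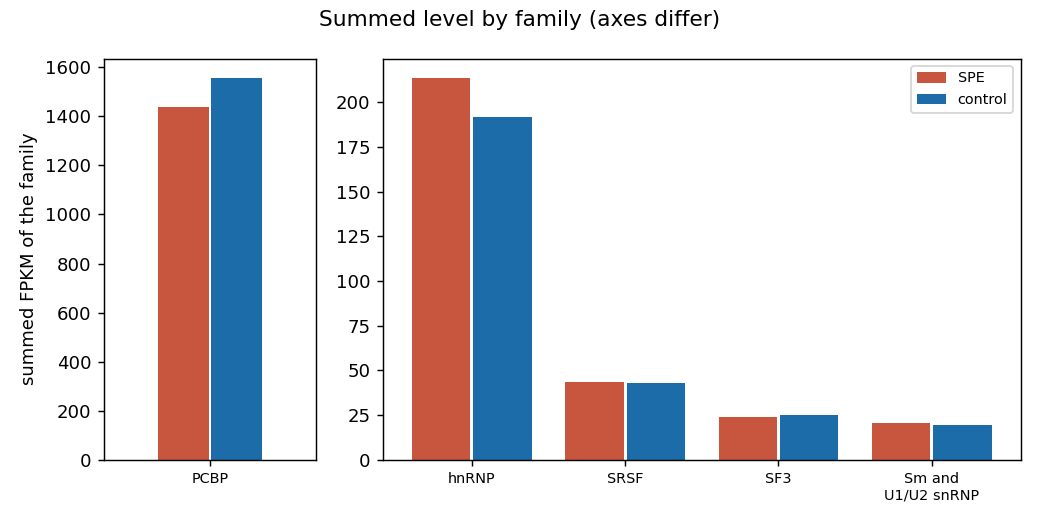
Summed FPKM of each family in the SPE library (left bar of each pair) and the control library (right bar), with the PCBP family on an axis of its own. PCBP reached 1437 and 1558 FPKM and hnRNP 213.7 and 191.4 FPKM, while the SRSF, SF3 and snRNP sums were close in both libraries.

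Other genes of splicing were set beside these families. Of 71 other spliceosome genes found, 25 had a mean level of 1 FPKM or more, with no 2-fold difference and a median log2 ratio of 0.01. CHERP, a U2-associated protein gene, was the highest at 20.2 FPKM in the SPE library and 20.7 FPKM in the control library. The extremes were CWC15, of the PRP19-associated complex, with 5.85 FPKM in the SPE library and 2.98 FPKM in the control library (0.78), and CRNKL1, of the same assembly, with 1.80 FPKM in the SPE library and 3.44 FPKM in the control library (-0.66). U2AF2, which recognises the polypyrimidine tract ahead of the 3′ splice site, was at 3.88 FPKM in the SPE library and 4.12 FPKM in the control library.

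Genes that assemble snRNPs, with the LSm genes, had 14 measured of 25 found, no 2-fold difference and a median of 0.22, 10 of them (71.4%) with a positive ratio, against 44.6% of all 4391 genes. PHAX, the export adaptor of snRNAs, was the highest at 53.0 FPKM in the SPE library and 58.0 FPKM in the control library. LSM2 had the largest ratio (0.91), with 4.28 FPKM in the SPE library and 1.80 FPKM in the control library, and CLNS1A, a chaperone of Sm proteins, the lowest (-0.31), with 4.97 FPKM in the SPE library and 6.40 FPKM in the control library.

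SR protein kinases and SR-related genes had 16 measured of 31 found and a median of 0.07. PNN, the SR-related protein pinin, was the 1 gene beyond 2-fold among those of the splicing lists past the 1 FPKM level, with 10.1 FPKM in the SPE library and 4.49 FPKM in the control library (1.02). Below that level DDX23 and RBM3 also lay beyond 2-fold, at 1.21 and 1.16 FPKM in the SPE library and listed at 0 in the control library. RNPS1, which activates splicing at the exon junction, was the highest at 40.6 FPKM in the SPE library and 47.3 FPKM in the control library, and the kinase gene CLK3 had the lowest ratio (-0.39), with 2.91 FPKM in the SPE library and 4.10 FPKM in the control library.

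Other splicing regulators had 19 measured of 55 found, no 2-fold difference and a median of -0.18, with 12 negative ratios (63.2%), against 55.4% of all 4391 genes. RBM4 had the highest mean level, with 38.7 FPKM in the SPE library and 54.2 FPKM in the control library (-0.47). In the SPE library RBM38 was above it, at 40.7 FPKM against 46.2 FPKM in the control library (-0.18). RBMX, itself known as hnRNP G, had the lowest ratio (-0.59), with 2.65 FPKM in the SPE library and 4.48 FPKM in the control library, and RBM24, a tissue-specific regulator, the largest (0.41), with 1.42 FPKM in the SPE library and 0.822 FPKM in the control library. The exon junction complex and nonsense-mediated decay list had 5 measured of 14 found, no 2-fold difference and a median of 0.27. Its highest gene was the decay helicase UPF1, at 51.1 FPKM in the SPE library and 57.2 FPKM in the control library (-0.16). UPF3B had the largest ratio (0.82), with 1.56 FPKM in the SPE library and 0.454 FPKM in the control library, and SMG8 the lowest (-0.32), with 30.1 FPKM in the SPE library and 37.8 FPKM in the control library. Differences between these lists and the 50 genes were not tested.

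**Figure D4:**
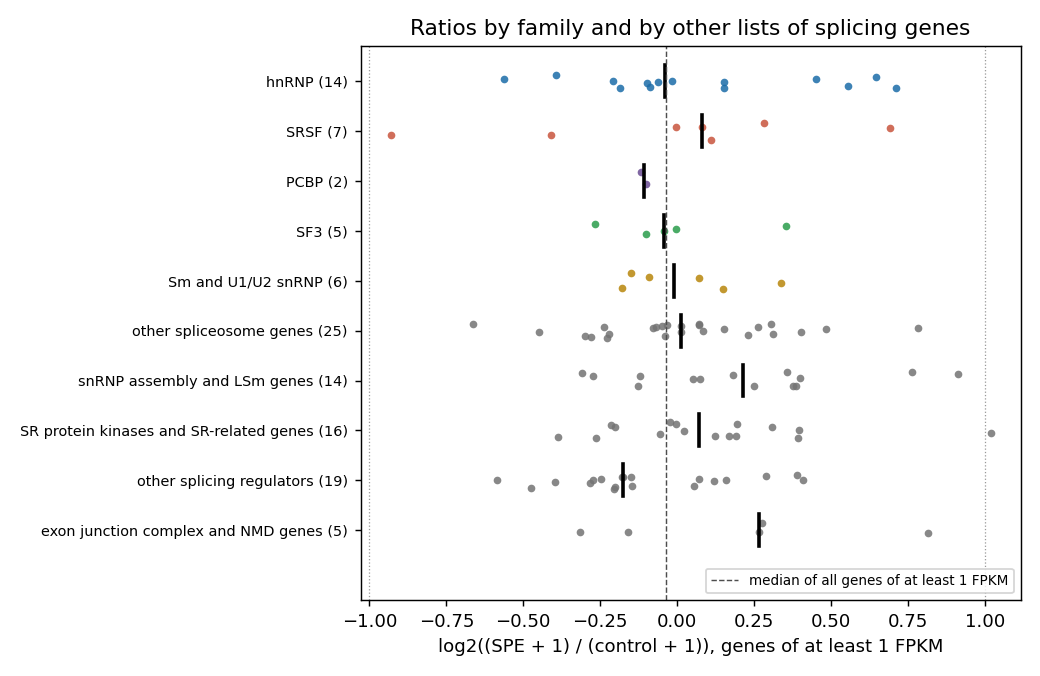
Log2 ratio of SPE to control (pseudocount of 1 FPKM) of each gene of at least 1 FPKM, for the 5 families (coloured) and 5 other lists of splicing genes (grey), with numbers of genes in brackets; black bars are medians, the dashed line is the median of all genes (-0.04) and dotted lines mark 2-fold. Family medians run from -0.11 (PCBP) to 0.08 (SRSF), and PNN is the only plotted point beyond a dotted line.

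As a check of the labelled cell type, 11 of 15 oocyte markers had a mean level of 1 FPKM or more, with a median log2 ratio of -0.05. OOSP2, an oocyte-secreted protein gene, was the highest at 730.3 FPKM in the SPE library and 904 FPKM in the control library. It also had the lowest ratio of the 11 (-0.31). GDF9 had the largest (0.89), with 145.5 FPKM in the SPE library and 78.06 FPKM in the control library. The germ cell helicase gene DDX4 was listed at 0 in the SPE library and at 0.00694 FPKM in the control library. The cumulus and granulosa markers summed to 9.07 FPKM in the SPE library and 26.5 FPKM in the control library. INHBA and INHBB held most of both sums. AMH, AMHR2, LHCGR and TNFAIP6 were at 0 in both. Of 19 markers 3 had a mean level of 1 FPKM or more, all lower in the SPE library. INHBA was at 5.55 FPKM in the SPE library and 9.87 FPKM in the control library (log2 ratio -0.73). INHBB was at 1.28 FPKM in the SPE library and 10.8 FPKM in the control library (-2.38). HSD3B1 was at 0.111 FPKM in the SPE library and 1.905 FPKM in the control library (-1.39). It reached a mean of 1 FPKM only through its control value, so the filter favoured its negative ratio. Of all 4391 genes 2.14% were at least 2-fold lower. Markers below a mean of 1 FPKM went both ways. In the SPE and control libraries, STAR was at 0.168 and 1.267 FPKM and GJA1 at 0.0854 and 0.708 FPKM. CYP11A1 was at 0.486 and 0.490 FPKM in the same order. Higher in the SPE library were CYP19A1 (0.339 and 0.264 FPKM), PTGS2 (0.198 and 0.0643 FPKM) and FOXL2 (0.199 and 0 FPKM). The part of the cumulus and granulosa markers in the differences above was not tested. In such bulk samples, fewer cells of a type and less RNA per cell cannot be told apart.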

How the data were processed

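RNA of pools of 100 oocytes was sequenced, 1 library in each group. The authors deposited FPKM values, per the file's name. Bowtie2 2.2.5, RSEM and the build mm9 are named in the submitters' processing notes, but the table lies on pig chromosomes; no source used here gives its program, annotation or build. Columns were matched to samples by name and number, and 2 further columns matched no sample and were not used. No read counts were analysed, so absolute depth is unknown.

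Positions were raised by 1, as loci count from 0, which is assumed from their layout. Log2 ratios used a pseudocount of 1 FPKM and a minimum mean of 1 FPKM. Small whole-number fragment ratios (product of terms up to 60) were sought among low genes, a step added after seeing the data. Of 12 low members 6 matched, against 34.4% of 8301 low genes. The rate of coincidental matches was not tested, and a match may be a coincidence. Named were members of at least 10 FPKM, beyond 1.5-fold, at the filter, or highest or extreme in a family or list; others were added after their values were seen. Members and lists were chosen with earlier results of these data known. With 1 library in each group no test was made. Alternatives covered pseudocounts, filters, scalings and gene models. The ratio, the filter and the 2-fold count were tested on simulated data, with recovery checked at 10 FPKM or more. The fragment matching, the intervals and the shares by level were not. Python 3.11.15, pandas 2.3.3, numpy 2.4.6, scipy 1.17.1 and matplotlib 3.10.9 were used.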

Additional observations from a re-analysis of the deposited data

How the results depend on the processing

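No paired analysis was possible because each group has 1 matched library and no test was made. No member was beyond 2-fold as reported; with a pseudocount of 0.1 FPKM 1 member was, SRSF6 (-1.45), and on the TPM scale 2 were, SRSF6 (-1.34) and SRSF3 (1.61), which passes the filter only on that scale. At 1.5-fold the count of 4 became 0 with a pseudocount of 5 FPKM and 0 with a minimum mean of 10 FPKM, where 7 members are left, and 7 on the TPM scale, where 42 pass the filter. The median log2 ratio of the members ran from -0.08 (upper quartile scale) to 0.02 (scaled without mitochondrial and ribosomal RNA genes), so its sign depended on the scaling. The log2 ratio of the summed FPKM was -0.08 as reported, 0.11 without PCBP1, an alternative added after seeing the data, and 0.13 for gene models of at least 3 kb, which also leave PCBP1 out. Medians of the SF3, snRNP and hnRNP families also changed sign under other settings, as did that of SRSF at a minimum of 10 FPKM, where SRSF2 alone is left. The 4 members beyond 1.5-fold were among those that moved most: with a pseudocount of 5 FPKM the log2 ratios were 0.38 for HNRNPU, 0.33 for SRSF10, 0.36 for HNRNPA2B1 and -0.37 for SRSF6. Over named members, 10 of 114 repeats with another pseudocount or scaling moved by more than 0.27 on the log2 scale, the robust SD over all genes analysed. Of these, 8 came with another pseudocount and 2 on the TPM scale. Values are larger on the TPM scale, so the pseudocount of 1 weighs less there and more genes pass the filter. The other settings leave the ratio of a single gene as it is. Low values limit the rest: 16 of 50 members lay below 1 FPKM.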
